A study of Homo sapiens with 24 samples.

Results

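Tumour cells signal to blood and lymphatic vessels through secreted and surface-bound ligands, and 10 such genes that the hypoxia-inducible factor (HIF) can regulate are described here: VEGFA, VEGFB, VEGFC and PGF of the VEGF family, ADM, ANGPTL4, PDGFA, PDGFB, EFNA1 and EFNA3. They were chosen by symbol, with earlier results of these data known, and all 10 were among the 23106 gene symbols counted. Of these, 9 were among the 11735 genes that passed the filter on low counts, and PGF was not.

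RNA was sequenced from RCC4+VHL cells, a clear cell renal carcinoma line in which the VHL tumour suppressor was put back by stable transfection of an expression plasmid. The line is a single clone, it carries the plasmid in every group, and all cells were kept in phenol red-free medium with charcoal-treated serum before treatment. There were 4 groups of 6 libraries: normoxia + DMSO (21% oxygen and the vehicle), normoxia + ITE (21% oxygen and 100 nM ITE, an indole ligand that activates the aryl hydrocarbon receptor, AHR), hypoxia + DMSO (0.5% oxygen and the vehicle) and hypoxia + ITE (0.5% oxygen and 100 nM ITE), each for 6 h. The methods call the 6 replicates independent, while neither they nor the labels say whether same-numbered libraries were made together. In bulk RNA, fewer cells of a kind and less RNA per cell cannot be told apart.

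Total counts ranged from 770094 to 93851342 per library (median 7981993), and 3 counts, taken as the floor of detection, corresponded to between 0.0294 and 4.12 CPM (counts scaled to one common library size after TMM normalisation). Floors cover counting error only. Hypoxia + DMSO replicate 2 was the shallowest library, and hypoxia + ITE replicate 6 stood apart from its group. Its median absolute deviation from the group was 0.755 on the log2 scale, where the other libraries had between 0.11 and 0.426. Next were hypoxia + DMSO replicates 1 (0.426) and 2 (0.355) and hypoxia + ITE replicates 3 (0.34) and 1 (0.321). Sample quality weights from limma were lowest for hypoxia + ITE replicates 6 (0.072) and 3 (0.173) and hypoxia + DMSO replicate 1 (0.252), and at least 0.72 elsewhere. Normoxia + DMSO replicate 4 held 442 counts of COL1A2 and 81 of DCN, fibroblast genes at 0 in every other library. NDRG1, a HIF target, rose by 3.25 on the log2 scale in hypoxia + DMSO (edgeR quasi-likelihood test, adjusted p = 5.68e-15), and CYP1B1, an AHR target, rose by 2.51 in normoxia + ITE (adjusted p = 7.64e-09). Of 11 renal epithelial and renal carcinoma markers, 10 had counts in every library, and the eleventh, CA9, had counts only in normoxia + DMSO replicate 4.

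HIF is a pair of an oxygen-regulated alpha subunit and ARNT (HIF-1β). With VHL present, the alpha subunits are degraded in normoxia and accumulate in hypoxia, and HIF then switches on genes through a short core sequence, ACGTG or GCGTG. AHR also pairs with ARNT, and its core sequence is GCGTG. VEGFA is the best known HIF target among vessel signals and drives the growth of endothelial cells through KDR, ADM is a peptide that dilates vessels and tightens lymphatic and blood endothelium, and loss of VHL in renal carcinoma is known to go with high VEGFA and dense vessels.

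Promoter windows are shown because HIF and AHR both act through known core sequences. RefSeq promoter entries were found for 8 of the 10 members, with 12 entries in all, and VEGFA and PDGFB had none. The windows shown are the 250 bases before the annotated start, 5′ to 3′ on the gene's strand, on GRCh38.p14, whereas the counts were made on GRCh37. Capitals mark ACGTG or GCGTG on either strand, the complement reading CACGT or CACGC. The first 4 belong to genes that were higher in hypoxia, and the last, VEGFB, to one that was not.
ADM: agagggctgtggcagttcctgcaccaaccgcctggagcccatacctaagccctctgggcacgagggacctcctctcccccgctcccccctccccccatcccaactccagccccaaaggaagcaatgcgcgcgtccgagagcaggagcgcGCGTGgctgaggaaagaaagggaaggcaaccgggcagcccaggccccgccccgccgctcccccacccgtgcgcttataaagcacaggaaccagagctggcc
ANGPTL4: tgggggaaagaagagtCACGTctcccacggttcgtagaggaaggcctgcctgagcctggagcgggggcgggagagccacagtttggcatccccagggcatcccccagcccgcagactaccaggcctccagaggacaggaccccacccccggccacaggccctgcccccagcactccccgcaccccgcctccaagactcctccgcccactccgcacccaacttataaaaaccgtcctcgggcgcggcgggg
EFNA1: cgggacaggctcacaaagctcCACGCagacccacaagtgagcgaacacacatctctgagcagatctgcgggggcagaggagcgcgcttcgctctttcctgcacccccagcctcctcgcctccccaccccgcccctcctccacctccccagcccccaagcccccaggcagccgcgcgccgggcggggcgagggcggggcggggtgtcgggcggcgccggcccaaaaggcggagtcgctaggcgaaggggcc
EFNA3: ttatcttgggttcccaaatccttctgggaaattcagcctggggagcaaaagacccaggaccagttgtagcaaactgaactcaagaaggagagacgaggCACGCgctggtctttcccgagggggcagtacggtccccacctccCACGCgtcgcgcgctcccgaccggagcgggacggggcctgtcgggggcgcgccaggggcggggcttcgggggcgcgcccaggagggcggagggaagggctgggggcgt
VEGFB: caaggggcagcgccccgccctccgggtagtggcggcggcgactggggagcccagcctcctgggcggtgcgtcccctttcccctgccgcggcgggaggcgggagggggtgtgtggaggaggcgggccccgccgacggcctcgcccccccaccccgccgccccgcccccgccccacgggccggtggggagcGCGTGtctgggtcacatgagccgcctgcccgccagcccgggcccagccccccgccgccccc
They lie at chr11:10304823-10305072 for ADM, chr19:8363905-8364154 for ANGPTL4, chr1:155127626-155127875 for EFNA1, chr1:155078587-155078836 for EFNA3 and chr11:64234334-64234583 for VEGFB, all on the plus strand. ADM held GCGTG from 97 to 101 bases before the start, EFNA1 held its complement from 225 to 229 bases and EFNA3 held it at 2 places, from 104 to 108 and from 148 to 152 bases. ANGPTL4 was the only member whose windows held ACGTG, on the minus strand from 230 to 234 bases before the start, and VEGFB held GCGTG from 57 to 61 bases. Of the 12 windows of members, 1 held ACGTG, 9 held GCGTG and 10 held either. Among all 35116 windows these shares were 18.5%, 32.2% and 43.2%. The 12 windows are not independent, since PDGFA and PGF had more than 1 each. Their GC content ran from 67.6% to 82.8%, and windows of like content were not compared. In these cells the study found that bound HIF sites strongly favoured ACGTG and that AHR preferred GCGTG. Since GCGTG is the core of both factors, a match to it does not tell HIF from AHR, and VEGFB held a core as the other 4 genes shown did. VEGFC and PDGFA, also not called in hypoxia, held GCGTG in windows not shown. Windows of 250 bases leave out distant sites, and the study described its AHR and HIF-2 sites as distal to promoters. The windows thus do not show where either factor binds.

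The members differed widely in level. Levels were compared between genes as CPM per kb of the MANE Select transcript, the 1 reference transcript that RefSeq and Ensembl share for each gene. In normoxia + DMSO, VEGFB, a ligand of FLT1, was the most abundant, with a median of 25.8 CPM per kb (range 23.6 to 29.1). EFNA1 (15.0), ADM (13.8) and VEGFC (11.2) followed, with ranges that overlapped one another, and VEGFA had a median of 8.88 CPM per kb (range 7.52 to 11.5, within reach of VEGFC). Every VEGFB value was above every value of the other members. PDGFA had 6.53, PDGFB 2.53, EFNA3 1.14 and ANGPTL4 0.524 CPM per kb, and of these neighbours in the order PDGFA and PDGFB did not overlap while the last pair did. In hypoxia + DMSO the order was different: ADM stood first at 83.3 CPM per kb (range 54.3 to 105), above every value of VEGFB (23.3 to 36.2) and EFNA1 (25.6 to 34.2), which overlapped each other. VEGFA (14.0 to 18.9) lay below EFNA1 there and overlapped VEGFC (9.25 to 15.9). With all annotated exons merged in place of 1 transcript, VEGFA moved from the fifth to the seventh place in normoxia + DMSO (2.22 CPM per kb), since its merged exons span 14431 bases against 3609 in the transcript.

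The first comparison asked how the vessel signals respond to hypoxia without ITE. In hypoxia + DMSO against normoxia + DMSO, 5 of the 9 members tested were higher (VEGFA, ADM, ANGPTL4, EFNA1 and EFNA3) and 0 were lower at an adjusted p under 0.05. Among all genes tested 1.16% were higher and 0.136% lower. Since the members were chosen with earlier results of these data known, the shares describe them and are not an independent contrast. ANGPTL4 also passed the filter on low counts only with its hypoxic libraries, where it was higher. The median log2 fold change was 0.87 over the 9 members and -0.0033 over all genes. The groups did not overlap for 3 members (VEGFA, ADM and EFNA1), where every hypoxic library was above every normoxic one, as it was for 1.8% of all genes. With ITE present, in hypoxia + ITE against normoxia + ITE, the same 5 members were higher and 0 lower, beside 1.89% and 0.46% of all genes, with a median of 0.84 over the members and 0.02 over all genes. Here the groups did not overlap for VEGFA and ADM, as for 1.21% of all genes.

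**Figure D1:**
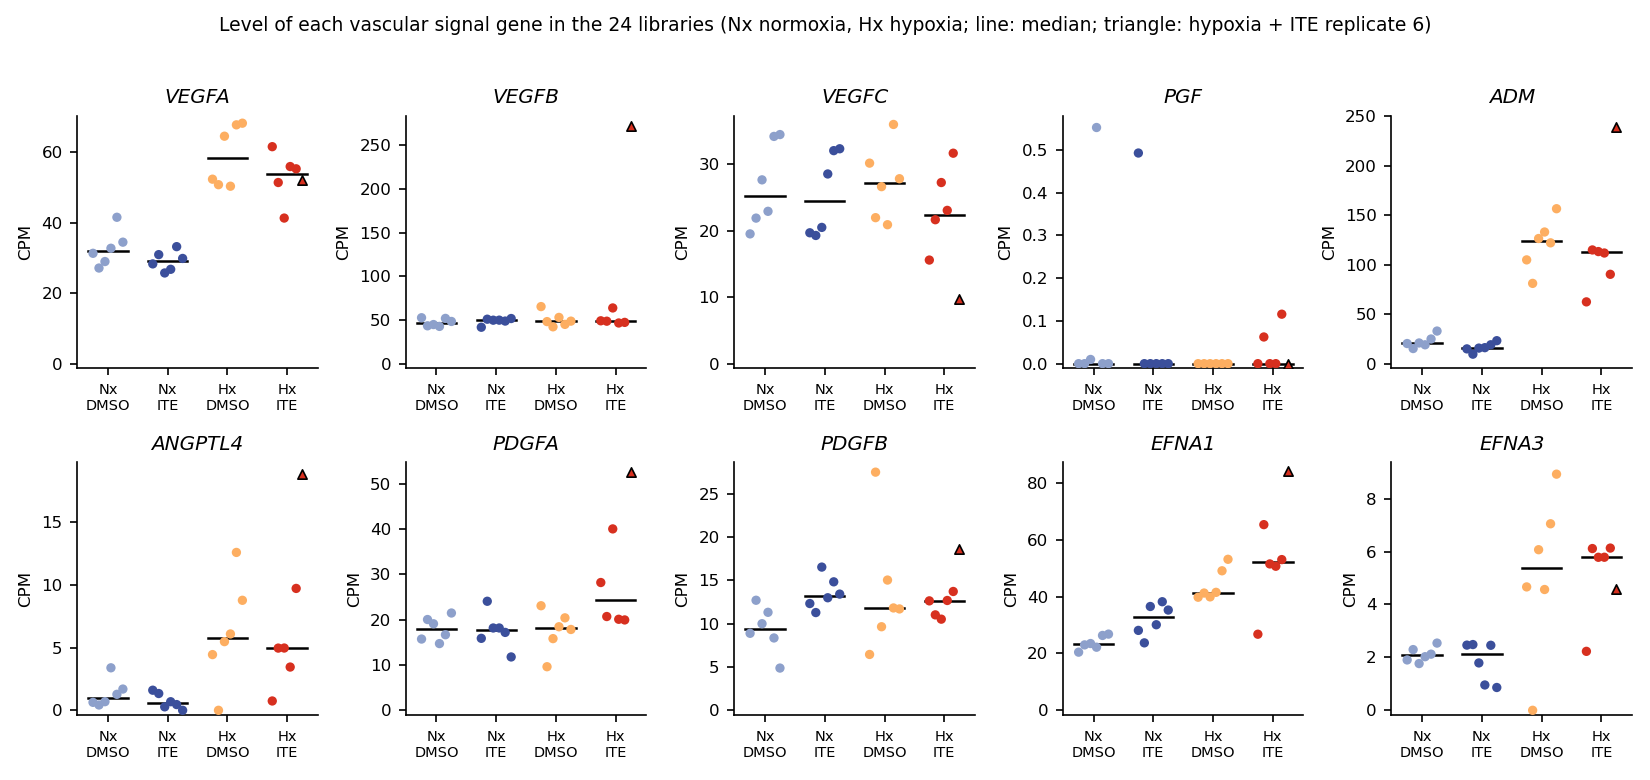
CPM of the 10 members in each of the 24 libraries (Nx normoxia, Hx hypoxia), 1 point per library with the group median as a line and hypoxia + ITE replicate 6 as a triangle. VEGFA and ADM show no overlap between oxygen levels within either treatment, while VEGFB, VEGFC and PDGFB overlap, and the triangle is the highest point of its group for VEGFB, ADM, ANGPTL4, PDGFA, PDGFB and EFNA1.

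VEGFA (chromosome 6 from 43737921 to 43754224, GRCh37), the main growth factor of endothelial cells, had between 27.2 and 41.6 CPM in normoxia + DMSO (median 32.1) and between 50.4 and 68.3 CPM in hypoxia + DMSO (median 58.5). In the ITE groups the range was 25.8 to 33.2 CPM in normoxia (median 29.1) and 41.4 to 61.7 CPM in hypoxia (median 53.8). Every hypoxic library was above the whole normoxic group of the same treatment. Fold changes are given on the log2 scale with their standard error (SE) and a p adjusted over all genes tested. VEGFA rose by 0.87 without ITE (SE 0.12, adjusted p = 3.43e-05) and 0.85 with it (SE 0.12, adjusted p = 5.53e-05). These are 1.83-fold and 1.80-fold.

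VEGFB (chromosome 11 from 64002056 to 64006736), which binds FLT1 and is known more for lipid handling in muscle than for vessel growth, was not called. It had between 42.6 and 52.5 CPM in normoxia + DMSO (median 46.5) and between 42.1 and 65.3 CPM in hypoxia + DMSO (median 48.4), which overlapped, with a log2 fold change of 0.09 (95% interval -0.54 to 0.73). The SE was 0.31 here and 0.12 for VEGFA. It rests on a spread estimated over all 24 libraries, which include hypoxia + ITE replicate 6, a library of neither group compared. In normoxia + ITE it had between 41.6 and 51.6 CPM (median 49.7), and in hypoxia + ITE 5 libraries lay between 46.5 and 63.7 CPM while replicate 6 had 272 CPM (median 48.8 over all 6). The fitted change with ITE was 0.84 (SE 0.31, adjusted p = 0.125), and 0.07 without replicate 6.

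VEGFC (chromosome 4 from 177604689 to 177714076), the growth factor of lymphatic endothelium through FLT4, also overlapped between all groups. It ranged from 19.5 to 34.5 CPM in normoxia + DMSO (median 25.3), from 20.9 to 36.0 in hypoxia + DMSO (median 27.3), from 19.3 to 32.4 in normoxia + ITE (median 24.5) and from 9.66 to 31.7 in hypoxia + ITE (median 22.4). The lowest of these was again replicate 6 of hypoxia + ITE. The log2 fold change with hypoxia was 0.06 without ITE (95% interval -0.38 to 0.50) and -0.20 with it (95% interval -0.64 to 0.23). GENCODE places a long noncoding RNA on the opposite strand over each of VEGFA, VEGFC and PDGFB, and since the strand setting of the counting is not given in the sources used here, reads of the pair cannot be told apart.

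PGF (chromosome 14 from 75408537 to 75422329), placental growth factor, another FLT1 ligand, was barely detected. It had 0 counts in every library of hypoxia + DMSO and in most others, 15 counts (0.552 CPM) in normoxia + DMSO replicate 4, 4 counts (0.493 CPM) in normoxia + ITE replicate 1 and at most 2 counts elsewhere. Its level was thus at or below the floor of 3 counts in all but those 2 libraries, and no test was run.

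ADM (chromosome 11 from 10326620 to 10328944) encodes adrenomedullin, a vasodilator peptide. It had between 15.3 and 32.9 CPM in normoxia + DMSO (median 20.6) and between 81.1 and 156.5 CPM in hypoxia + DMSO (median 124). The ranges with ITE were 9.56 to 23.2 CPM in normoxia (median 15.9) and 62.4 to 239 CPM in hypoxia (median 112.5). No hypoxic library fell within the range of a normoxic group. ADM rose by 2.47 without ITE (5.54-fold, SE 0.24, adjusted p = 4.91e-08). With ITE it rose by 2.88 (7.36-fold, SE 0.25, adjusted p = 4.8e-09), and 2.58 without hypoxia + ITE replicate 6, which had the 239 CPM.

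ANGPTL4 (chromosome 19 from 8428173 to 8439254) encodes a secreted inhibitor of lipoprotein lipase that also acts on vessel permeability. It was low, with between 0.423 and 3.39 CPM in normoxia + DMSO (median 0.980), and in hypoxia + DMSO 5 libraries had between 4.44 and 12.6 CPM while the shallow replicate 2 had 0 counts, under a floor of 4.12 CPM. Libraries with ITE had between 0 and 1.60 CPM in normoxia (median 0.570) and between 0.743 and 18.8 CPM in hypoxia (median 4.96). In each comparison 5 of the 6 hypoxic libraries were above every normoxic one, and the exception with ITE, replicate 1, was a shallow library with 1 count. ANGPTL4 rose by 2.40 without ITE (SE 0.56, adjusted p = 0.021) and by 3.47 with it (SE 0.65, adjusted p = 0.00156), or 3.03 without hypoxia + ITE replicate 6. The call without ITE was lost when any 1 of 5 libraries was left out: normoxia + DMSO replicate 1 (2.30, adjusted p = 0.0627), 2 (2.16, adjusted p = 0.0745) or 3 (2.21, adjusted p = 0.0844), or hypoxia + DMSO replicate 5 (2.07, adjusted p = 0.104) or 6 (2.33, adjusted p = 0.0542). It held under all other models tried, with adjusted p from 7.68e-06 to 0.0488.

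The highest ANGPTL4 value of normoxia + DMSO, 3.39 CPM in replicate 4, came from the library with fibroblast genes, where the others had at most 1.69 CPM. Without that library the change in hypoxia + DMSO was 3.08 (adjusted p = 0.00365). All 10 mural and fibroblast markers and all 10 endothelial markers had counts in that library. In the rest of its group between 4 and 7 mural and fibroblast markers and between 5 and 8 endothelial markers had counts, and the summed mural and fibroblast level was 100 CPM there and between 10.8 and 51.3 CPM in the others. Among the markers, named here after their values were seen, COL3A1 had 435 counts there and at most 2 in any other library, DES 242 and at most 4, PLVAP 77 and 0, and PECAM1 22 and 0. Across groups the mural and fibroblast sum ran from 10.8 to 100 CPM in normoxia + DMSO, 13.0 to 64.7 in normoxia + ITE, 13.5 to 92.4 in hypoxia + DMSO and 12.3 to 69.8 in hypoxia + ITE. RGS5 alone reached 40.1, 48.5, 72.2 and 57.2 CPM in these groups, and had 16.9 CPM in normoxia + DMSO replicate 4. The part of these marker genes in the ANGPTL4 and PGF values of that library was not tested.

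**Figure D2:**
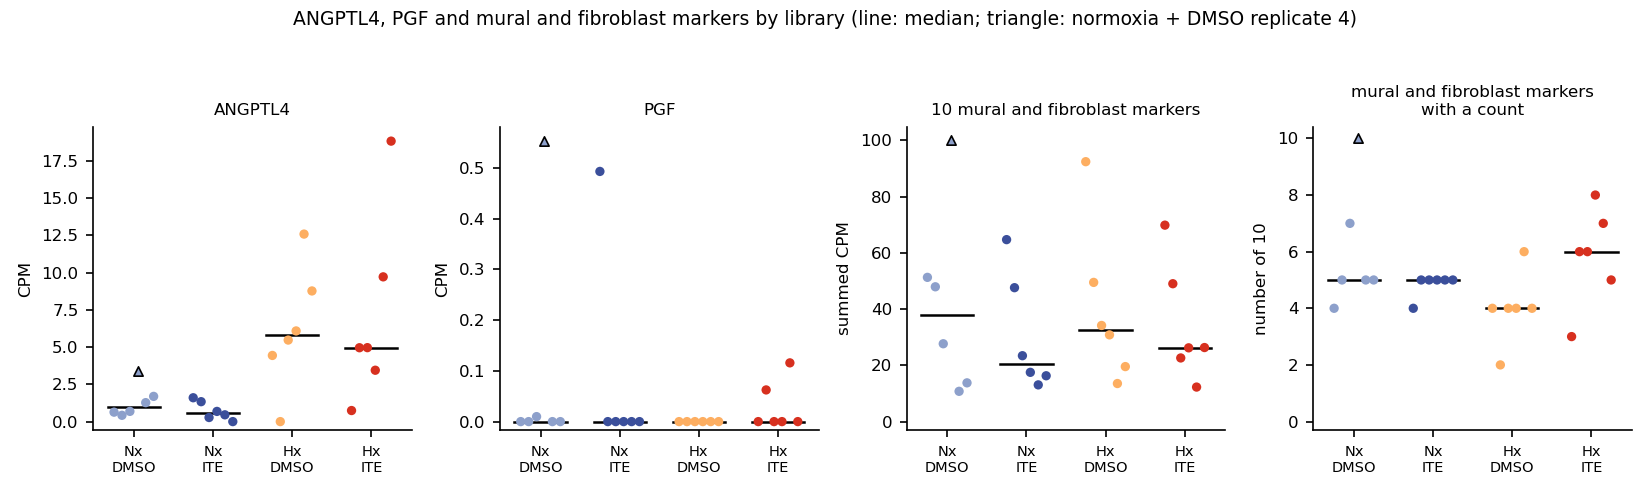
ANGPTL4 and PGF (CPM), the summed CPM of 10 mural and fibroblast markers and the number of those markers with a count, in each of the 24 libraries, with group medians as lines and normoxia + DMSO replicate 4 as a triangle. That library is the highest of its group in all 4 panels, with 3.39 CPM of ANGPTL4, 0.552 CPM of PGF and all 10 markers present.

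PDGFA (chromosome 7 from 536895 to 559933) and PDGFB (chromosome 22 from 39619364 to 39640987) encode platelet-derived growth factor chains. PDGFB recruits pericytes to new vessels through PDGFRB, and PDGFA acts through PDGFRA. PDGFA had between 14.7 and 21.5 CPM in normoxia + DMSO (median 17.9) and between 9.62 and 23.1 CPM in hypoxia + DMSO (median 18.15), a log2 difference of 0.03 (95% interval -0.42 to 0.47). With ITE the values ran from 11.8 to 24.1 CPM in normoxia (median 17.7) and from 19.96 to 52.6 CPM in hypoxia (median 24.5). Here 3 of the 6 hypoxic libraries were above every normoxic one. They were replicates 6 (52.6 CPM), 3 (40.1 CPM) and the shallow 1 (28.2 CPM from 38 counts), and the others had at most 20.7 CPM. These 3 also had the largest deviations of their group (0.755, 0.34 and 0.321). The change of PDGFA with ITE, 0.78 (SE 0.22), did not pass the threshold (adjusted p = 0.0522), and it was 0.55 without hypoxia + ITE replicate 6 (adjusted p = 0.149). It passed with DESeq2 (0.80, adjusted p = 0.0156). Over the alternatives that left no library out, it ran from 0.35 to 0.80, with adjusted p from 0.0156 to 0.276. It also passed when any 1 of 7 libraries was left out (normoxia + ITE replicate 2, hypoxia + DMSO replicates 1 and 2, and hypoxia + ITE replicates 1, 2, 4 and 5), with changes from 0.78 to 0.88 and adjusted p from 0.0194 to 0.0483. PDGFB had between 4.87 and 12.7 CPM in normoxia + DMSO (median 9.44), 11.3 and 16.5 in normoxia + ITE (median 13.2), 6.44 and 27.5 in hypoxia + DMSO (median 11.8) and 10.5 and 18.6 in hypoxia + ITE (median 12.7). The value of 27.5 CPM rested on 20 counts in the shallow replicate 2. The log2 fold change of PDGFB with hypoxia was 0.37 without ITE (95% interval -0.12 to 0.85) and -0.06 with it (95% interval -0.53 to 0.40).

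EFNA1 (chromosome 1 from 155100352 to 155107375) and EFNA3 (chromosome 1 from 155051313 to 155060014) encode ephrins, ligands tethered to the cell surface that signal to EphA receptors on neighbouring cells. EFNA1 had between 20.4 and 26.8 CPM in normoxia + DMSO (median 23.2) and between 39.8 and 53.1 CPM in hypoxia + DMSO (median 41.4), with no overlap. It rose by 0.91 (1.88-fold, SE 0.17, adjusted p = 0.00176). With ITE its range was 23.7 to 38.2 CPM in normoxia (median 32.7) and 26.7 to 84.0 CPM in hypoxia (median 52.2), where 5 of 6 libraries were above every normoxic one. That change was 0.80 (SE 0.17, adjusted p = 0.00563), and it lost its call when only the 2 groups compared were fitted (0.80, adjusted p = 0.124, where adjusted p ranged from 0.000206 to 0.124 over the alternatives). EFNA3 had between 1.77 and 2.54 CPM in normoxia + DMSO (median 2.07), and in hypoxia + DMSO 5 libraries had between 4.57 and 8.93 CPM while the shallow replicate 2 had 0 counts. With ITE its range was 0.862 to 2.48 CPM in normoxia (median 2.12) and 2.23 to 6.13 CPM in hypoxia (median 5.78). In both comparisons 5 of the 6 hypoxic libraries were above every normoxic library. EFNA3 rose by 1.49 without ITE (2.81-fold, SE 0.30, adjusted p = 0.00447) and 1.55 with it (SE 0.31, adjusted p = 0.00359).

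EFNA4, EFNA3 and EFNA1 follow one another on the plus strand of chromosome 1. A read-through transcript annotated by GENCODE from 155036224 to 155059283 joins EFNA4 and EFNA3. Any of its reads that were counted for either gene cannot be told apart from theirs. EFNA4 (155036213 to 155042029), another ephrin, had a change of 0.04 in hypoxia + DMSO (adjusted p = 0.972) and was higher by 0.64 in hypoxia + ITE (SE 0.16, adjusted p = 0.0243). Leaving out normoxia + ITE replicate 2 (0.61, adjusted p = 0.0629), 4 (0.62, adjusted p = 0.0646) or 6 (0.60, adjusted p = 0.0726) ended that call, as did fitting only the groups compared (adjusted p = 0.141, the highest over the alternatives, where the lowest was 0.00363). Its median level was 13.3 CPM in normoxia + DMSO, 14.3 in hypoxia + DMSO, 12.1 in normoxia + ITE and 19.7 in hypoxia + ITE.

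**Figure D3:**
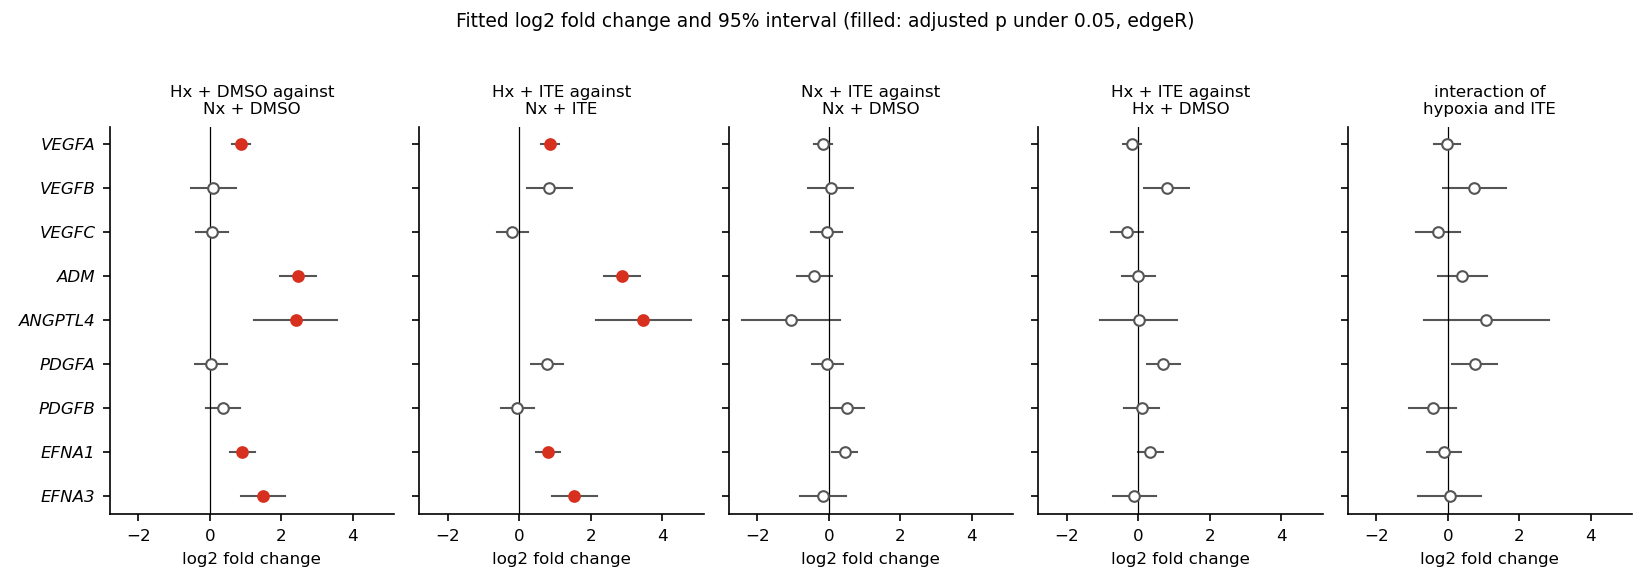
Fitted log2 fold change (horizontal axis) of the 9 members tested in the 5 comparisons, with 95% intervals as lines and filled points for an adjusted p under 0.05. The same 5 members are filled in both comparisons of oxygen, from 0.80 for EFNA1 to 3.47 for ANGPTL4, and none in the comparisons of ITE or the interaction.

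The next comparisons asked whether ITE changes these signals. In normoxia + ITE against normoxia + DMSO, 0 members were higher and 0 lower with edgeR, beside 0.0511% and 0% of all genes. An unadjusted p under 0.05 from edgeR was reached by 91 genes above 0 and 80 below it. Over 11735 genes chance alone gives more than these, so the edgeR fit was conservative here. DESeq2 called 13 genes higher and 1 lower, and limma with sample quality weights 67 and 45. With only the compared groups 28 and 3 were called, against 6 and 0 in the main fit and 5 and 0 without a filter. A member without a call here is thus not shown to be unchanged by ITE. EFNA1 had 5 of its 6 libraries with ITE above every library without it, a change of 0.44 (95% interval 0.10 to 0.78, unadjusted p = 0.0133 from edgeR, adjusted p = 1). It passed the threshold with limma and sample quality weights (0.50, adjusted p = 0.00905, where adjusted p ranged from 0.00905 to 1 over the alternatives). PDGFB had 4 of 6 libraries with ITE above every library without it and a change of 0.52 (95% interval 0.06 to 0.98, unadjusted p = 0.0276 from edgeR, adjusted p = 1). The estimates for ADM (-0.41 on the log2 scale, 95% interval -0.90 to 0.08) and ANGPTL4 (-1.06, 95% interval -2.44 to 0.32) were below 0, and that of ANGPTL4 was -0.38 without normoxia + DMSO replicate 4. VEGFA had -0.16 (95% interval -0.41 to 0.09). All these intervals come from the fit without a replicate block. By replicate number, ADM was lower with ITE in 6 of 6 pairs, EFNA1 higher in 6 of 6 and ANGPTL4 lower in 4 of 6. Deviations of same-numbered libraries had a mean correlation of 0.237 in this comparison, though the labels do not state a pairing. Values with the block are given in the last section.

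In hypoxia + ITE against hypoxia + DMSO, 0 members were higher and 0 lower, beside 0.0597% and 0% of all genes, where an unadjusted p under 0.05 was reached by 878 genes above 0 and 244 below it, and DESeq2 called 8 higher and 1 lower. ADM had a difference of 0.00 (95% interval -0.47 to 0.48), VEGFA -0.18 (95% interval -0.44 to 0.07), EFNA3 -0.12 (95% interval -0.72 to 0.48) and ANGPTL4 0.01, with a wide interval from -1.07 to 1.10. The estimate for EFNA1 was 0.34 (95% interval -0.01 to 0.68). PDGFA had 0.71 (95% interval 0.25 to 1.16, adjusted p = 0.494), with 3 of 6 libraries (replicates 1, 3 and 6) above every library without ITE. Its value was 0.46 without replicate 6 of hypoxia + ITE. VEGFB had 0.79 (adjusted p = 0.494), and 0.03 without that replicate.

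The interaction, the response to hypoxia with ITE minus that without it, was called for 0 members in either direction and for 0% of all genes in either direction with edgeR. An unadjusted p under 0.05 from edgeR was reached by 290 genes above 0 and 84 below it, and DESeq2 also called 0 and 0. Chance alone gives more than the 290 and 84 over 11735 genes, so the edgeR fit was conservative here too. A member without a call is thus not shown to respond alike with and without ITE. Among the 5 members that rose in hypoxia the interaction was -0.02 for VEGFA (95% interval -0.38 to 0.33), 0.41 for ADM (-0.27 to 1.09) and 1.07 for ANGPTL4 (-0.68 to 2.82). For EFNA1 it was -0.11 (-0.59 to 0.38) and for EFNA3 0.05 (-0.82 to 0.93). The intervals were narrowest for VEGFA and EFNA1 and did not bound the low-count genes closely. The value for ANGPTL4 was 0.40 without normoxia + DMSO replicate 4 and 0.61 without hypoxia + ITE replicate 6. The member with the smallest unadjusted p was PDGFA (0.75, 95% interval 0.12 to 1.38, adjusted p = 0.915), which was 0.52 without hypoxia + ITE replicate 6. The comparisons share groups, and so their values are not independent.

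Ratios of counts within a library do not depend on its normalisation and were described without a test. At low counts the 0.5 added to each count sets the value, so the ratio still depends on depth there. The log2 ratio of VEGFA to VEGFB counts was below 0 in all 12 normoxic libraries, from -0.74 to -0.32 in normoxia + DMSO and from -0.95 to -0.55 in normoxia + ITE. In hypoxia it was above 0 in 4 of 6 libraries with DMSO (range -0.32 to 0.62) and in 4 of 6 with ITE (range -2.38 to 0.33, or -0.62 to 0.33 without replicate 6). The ratio is not scaled to transcript length, so its sign is not an order of levels. The log2 ratio of EFNA3 to EFNA1 had a median of -3.41 in normoxia + DMSO and -2.93 in hypoxia + DMSO, and -4.125 and -3.265 with ITE, where the ranges overlapped. Without ITE the only overlap came from hypoxia + DMSO replicate 2, whose value of -5.93 stands for 0 counts of EFNA3. The other 5 hypoxic libraries ran from -3.16 to -2.56, above the whole normoxic range of -3.73 to -3.32. The log2 ratio of PDGFB to PDGFA had medians of -0.88 in normoxia + DMSO, -0.29 in normoxia + ITE, -0.66 in hypoxia + DMSO and -1.02 in hypoxia + ITE, all overlapping.

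**Figure D4:**
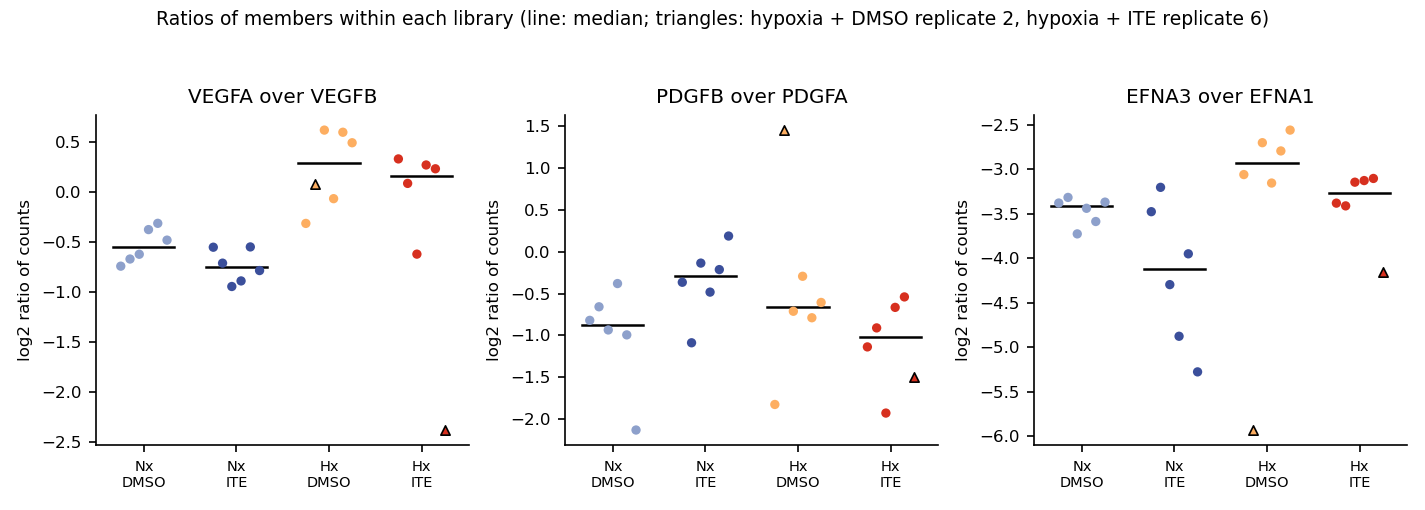
Log2 ratio of counts (0.5 added to each) within each of the 24 libraries for 3 pairs of members, with medians as lines and 2 doubted libraries as triangles. The 12 normoxic libraries sit below 0 for VEGFA over VEGFB, 8 of the 12 hypoxic ones sit above 0, and hypoxia + ITE replicate 6 is at -2.38.

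Over the 24 libraries, log2 CPM of VEGFA and ADM had a Pearson correlation of 0.896, EFNA1 and ADM 0.823 and ANGPTL4 and EFNA3 0.839, while VEGFA and VEGFC had -0.016. These are descriptions, since the libraries share groups and low-count genes share the effect of depth. Of all genes tested, those most like VEGFA were GBE1 (0.921), BHLHE40 (0.920) and BNIP3 (0.908). For ADM they were PFKFB4, ENO2 (0.971) and BNIP3 (0.970), with PFKFB4 the closest, and for EFNA1 they were RNF24 (0.877), STC2 (0.859) and NARF (0.845).

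The rest of the pathway was read from 7 lists of ligands and receptors that hold 78 further genes, 41 of which passed the filter. In hypoxia + DMSO 1 was higher and 0 lower (median log2 fold change -0.11 over the 41), beside 1.16% and 0.136% of all genes and a median of -0.0033 over all genes. In hypoxia + ITE 3 were higher and 0 lower (median -0.002), beside 1.89% and 0.46% and a median of 0.02. A count of 1 among 41 is near the share over all genes. In both comparisons of ITE and in the interaction 0 were higher and 0 lower. The called genes were APLN, VASH1 and EFNA4. APLN encodes apelin, a peptide that acts on endothelial cells, and rose by 2.48 in hypoxia + DMSO (SE 0.53, adjusted p = 0.00814) and by 3.12 in hypoxia + ITE (SE 0.58, adjusted p = 0.00148), from medians of 0.804 to 5.07 CPM and 0.287 to 3.87 CPM. VASH1, vasohibin 1, an inhibitor of vessel growth made by endothelium, rose by 1.23 in hypoxia + ITE (SE 0.28, adjusted p = 0.0154) and had 0.97 in hypoxia + DMSO (adjusted p = 0.108). Fitting only the compared groups ended the call of VASH1 with ITE (1.22, adjusted p = 0.134, where the alternatives began at 0.000279) and gave one without it (adjusted p = 0.0261). Without ITE the gene also passed with limma and quality weights (adjusted p = 0.00012), DESeq2 (adjusted p = 0.0271) and the replicate block (adjusted p = 0.0399), where the highest of the alternatives was 0.143, and without hypoxia + ITE replicate 1 (adjusted p = 0.0395) or 6 (adjusted p = 0.0176).

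Genes named from here on were chosen after their values were seen. PDGFC, a further PDGF chain, had a median of 163 CPM in normoxia + DMSO and 209 in hypoxia + DMSO, a change of 0.39 (SE 0.12, adjusted p = 0.128). It passed with limma and quality weights (0.34, adjusted p = 0.000468), with DESeq2 (0.39, adjusted p = 0.0213), with only the compared groups (0.38, adjusted p = 0.0249), where the highest of the alternatives was 0.193, and without hypoxia + ITE replicate 6 (0.38, adjusted p = 0.00357). VEGFD, the lymphatic growth factor listed under its older symbol FIGF, had at most 5 counts in any library. Of the 12 angiopoietins, other ANGPTL genes and TIE receptors, 0 passed the filter, and ANGPT1 had 0 counts in every library. ANGPTL4 was thus the only gene of its family that passed the filter.

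Receptors for the secreted members were mostly at or near 0. Their highest counts were in normoxia + DMSO replicate 4, the library with fibroblast and endothelial genes. FLT1 had 7 counts there and KDR 14, and each had at most 1 in any other library. FLT4 had 2 there and at most 1 elsewhere, and PDGFRA had 5 there and at most 2 elsewhere. RAMP2 and RAMP3, which make CALCRL a receptor of adrenomedullin, had 1 and 10 counts there and 0 in every other library, while CALCRL itself had a median of 2.03 CPM in normoxia + DMSO. Receptors and co-receptors that were well detected included NRP1, a co-receptor of VEGFA (median 56.2 CPM in normoxia + DMSO and 58.9 in hypoxia + DMSO), PDGFRB (42.5 and 38.3 CPM) and the Eph receptors EPHA2 (126 and 108 CPM) and EPHB4 (48.9 and 58.0 CPM). Of 3 VEGF and PDGF receptors, 4 adrenomedullin relatives and receptors and 6 Eph receptors tested, 0 were called in any comparison, which is near what the shares over all genes (1.16% and 1.89% higher in hypoxia) give for so few genes.

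Among the endothelial markers, the summed level was carried by EGFL7, which had between 44.02 and 77.0 CPM in the 3 groups other than hypoxia + ITE and between 52.0 and 209.5 CPM in that one. EGFL7 was higher in hypoxia + ITE than in normoxia + ITE (0.84, adjusted p = 0.0489), and so was the epithelial keratin KRT19 (0.89, adjusted p = 0.0375). Without replicate 6 of hypoxia + ITE the differences were 0.37 (adjusted p = 0.0825) and 0.42 (adjusted p = 0.0622). That replicate, with 272 CPM of VEGFB and 239 of ADM, had summed renal markers of 5177 CPM where the other libraries had between 1571 and 2508, and summed endothelial markers of 214 CPM where they had between 45.4 and 82.4. PECAM1 and PLVAP were at 0 in every library other than normoxia + DMSO replicate 4. Replicate 6 of hypoxia + ITE also had the lowest TMM factor of all libraries, 0.73. What lay behind its values was not tested.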

How the data were processed

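Poly(A) RNA from 24 libraries was sequenced after directional library preparation. The authors deposited raw read counts per gene symbol, with no normalisation. They were made by trimming with Trim Galore 0.3.3, alignment to GRCh37 with HISAT2 and removal of non-unique reads with Picard 2.0.1. Counting was on UCSC genes with HTSeq 0.5.4p3 in its intersection-strict mode. The strand setting is not given in the sources used here. Groups followed the sample labels. Genes passing filterByExpr (minimum count 10) were kept, which left 11735 of 23106 and removed PGF. All 24 libraries were fitted together with edgeR 4.0.16 (R 4.3.3; TMM factors, quasi-likelihood test, 1 mean per group), and p-values were adjusted by Benjamini-Hochberg over all genes tested, with 0.05 as the threshold. Intervals are 95% intervals of the fit. Correlations used log2 CPM with a prior count of 2, and ratios of counts used 0.5 added to each count. Alternatives were DESeq2 1.42.0, RLE factors, no filter, a replicate block, only the compared groups, limma 3.58.1 with sample quality weights, and leaving out libraries, 3 of them planned and the other 21 chosen after seeing the data. All members are named, with every other listed gene past the threshold. For VEGFA, ADM and EFNA1 the 3 best correlated genes are named too, and NDRG1 and CYP1B1 checked the stimuli. The members and lists were chosen with earlier results of these data known.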

Additional observations from a re-analysis of the deposited data

Results flagged for a closer look

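Of 39 sets of 6 libraries (each member in each group, leaving out PGF where all were at 0), 5 had 1 library at a distance from the rest by Dixon's test. By chance about 1 set in 20 does so, or 1.95 of these. That rate is for normally distributed values and does not hold for PGF, where a lone nonzero value among zeros is flagged. The excess over 1.95 is thus not a measure of how unusual these sets are. VEGFB had 272 CPM in hypoxia + ITE replicate 6, where the rest of the group had at most 63.7 CPM. ADM had 239 CPM in the same library, where the others had at most 114.8 CPM. VEGFB had its lowest value of normoxia + ITE, 41.6 CPM, in replicate 1, where the others had between 48.7 and 51.6 CPM. PGF had 0.552 CPM (15 counts) in normoxia + DMSO replicate 4 and 0.493 CPM (4 counts) in normoxia + ITE replicate 1, where the other libraries of these groups had at most 1 count.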

How the results depend on the processing

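The 5 members called in each comparison of oxygen kept their direction under all alternatives, and their calls changed only as given above for ANGPTL4 without ITE and EFNA1 with it. Leaving out 1 library gave 4 to 5 members higher in hypoxia + DMSO, 5 to 6 in hypoxia + ITE and 0 in the other comparisons. With sample quality weights in limma, 1 member (EFNA1) was higher in normoxia + ITE against 0 with edgeR. The same weights turned the sign of several uncalled values: PDGFA in hypoxia + DMSO (-0.0437), VEGFB in hypoxia + ITE against normoxia + ITE (-0.0177), VEGFC in normoxia + ITE (0.0473), ADM (-0.3547) and ANGPTL4 (-0.877) in hypoxia + ITE against hypoxia + DMSO, and the interactions of VEGFB (-0.044) and ADM (-0.1332). The cause was not tested. Whether replicate numbers pair the libraries is not given. Deviations of same-numbered libraries had mean correlations of 0.115 and 0.109 in the comparisons of oxygen, 0.237 in normoxia + ITE and 0.025 in hypoxia + ITE against hypoxia + DMSO, against -0.019, -0.022, -0.05 and 0.003 for other numbers. They were over 0.1 in 4, 3, 5 and 2 of 6 pairs, and 3, 4, 5 and 2 libraries correlated best with their own number, a hint of shared numbers that fell short of every pair, so the block stayed an alternative. In every group replicates 1 and 2 had between 47.6 and 92.4 CPM of mural and fibroblast markers, and the others at most 34.2 CPM, apart from normoxia + DMSO replicate 4. RGS5 carried much of that sum: in normoxia + DMSO it had 40.1 CPM in replicate 1 and 36.55 CPM in replicate 2. COL1A2, COL3A1 and DCN had 0 counts in these 2 libraries. A replicate block gave 149 higher and 25 lower genes in hypoxia + DMSO, 193 and 68 in hypoxia + ITE and 13 and 0 in normoxia + ITE, against 136 and 16, 222 and 54, and 6 and 0 without it. No member's call changed with it. In normoxia + ITE, ADM was lower in 6 of 6 same-numbered pairs (-0.42 with the block, unadjusted p = 0.0162 from edgeR, against 0.101 without it) and EFNA1 higher in 6 of 6 (0.44, unadjusted p = 0.00576), both with an adjusted p of 1. With the block ADM in hypoxia + ITE against hypoxia + DMSO had -0.0359. Leaving out 1 library at a time also turned the sign of uncalled values. In hypoxia + DMSO these ranged from -0.0457 to 0.1443 for VEGFC and from -0.0488 to 0.0861 for PDGFA, and in hypoxia + ITE against normoxia + ITE from -0.1784 to 0.0068 for PDGFB. In normoxia + ITE they ranged from -0.144 to 0.0223 for VEGFC and from -0.1485 to 0.0489 for PDGFA. In hypoxia + ITE against hypoxia + DMSO they ranged from -0.2923 to 0.1237 for ADM, -0.4565 to 0.3437 for ANGPTL4, -0.0402 to 0.2473 for PDGFB and -0.2176 to 0.0479 for EFNA3. The interaction ranged from -0.1 to 0.0486 for VEGFA, -0.0227 to 0.8902 for VEGFB, -0.2416 to 0.0072 for EFNA1 and -0.0954 to 0.221 for EFNA3. Counts over all genes moved by over 1.5 times, in at least 1 direction, with limma weights, DESeq2 and only the compared groups. Limma weights gave 513 higher and 327 lower in hypoxia + DMSO, 394 and 211 in hypoxia + ITE, and 67 and 45 in normoxia + ITE. DESeq2 gave 203 and 46, 509 and 179, and 13 and 1. Only the compared groups gave 186 and 48, 83 and 4, and 28 and 3. That fit also gave 1 higher in hypoxia + ITE against hypoxia + DMSO, where 7 were in the main fit. The higher genes in hypoxia + DMSO moved by less than 1.5 times with DESeq2 and with only the compared groups. Without a filter 188 and 34 were called in hypoxia + ITE. Leaving out 1 library gave 108 to 236 genes higher in hypoxia + DMSO and 137 to 644 in hypoxia + ITE. DESeq2 gave no p for VEGFB in any of the 5 comparisons. Hypoxia + DMSO replicate 2, with a floor of 4.12 CPM, could not show ANGPTL4 or EFNA3 at their normoxic levels.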
